A study of Mus musculus with 6 samples.

Results

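Nqo1 and 9 other genes of the NRF2 pathway were followed in the soleus (Sol) muscle of mice that had run on wheels, with or without LSD1 in their muscle fibers. The 10 genes were Nqo1, Srxn1, Txnrd1, Gclc, Gclm, Gsr, Slc7a11 and Hmox1, which are targets of NRF2, together with Nfe2l2, which encodes NRF2, and Keap1, which encodes its inhibitor. They were listed by symbol and chosen by the measured levels of Nqo1, which were higher in LSD1-mKO than in WT mice in these same libraries, so the question was whether the other 9 differed in the same way. All 10 were among the 24411 genes of the count table, and 9 were among the 12828 genes with enough counts to be tested; Slc7a11 was not.

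NRF2 is a transcription factor that KEAP1, an adaptor of a CUL3 ubiquitin ligase, holds at a low level by marking it for degradation. When oxidants or electrophiles modify cysteines of KEAP1, NRF2 escapes degradation, pairs with a small MAF protein and binds antioxidant response elements (AREs) near genes for quinone reduction, glutathione and thioredoxin metabolism, heme breakdown and NADPH supply. Control of NRF2 acts largely on the protein, so the mRNA of Nfe2l2 and Keap1 need not follow the activity of the pathway. NQO1, a flavoprotein that reduces quinones by transferring a pair of electrons, is a widely used readout of NRF2, and the aryl hydrocarbon receptor (AhR) can induce its gene as well through xenobiotic response elements (XREs).

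Poly(A) RNA was sequenced as 75-base single-end reads from the Sol of 3 WT and 3 LSD1-mKO mice, with 1 library per mouse. All were labelled C57BL/6 and carried floxed Lsd1 alleles, from a line of mixed B6.129 origin by the study's methods. They were 8 weeks old at the start and had 3 days to get used to the wheel. Tamoxifen was given at 75 mg/kg for 5 days, and the wheel was available for 38 days in all (voluntary wheel running, VWR). By the study's methods, mice were housed singly, and were fasted without a wheel before tissue was taken. LSD1-mKO mice additionally carried CreERT2, a tamoxifen-dependent recombinase, under the human ACTA1 promoter, and WT mice carried no CreERT2. Loss of LSD1 and presence of CreERT2 therefore cannot be told apart, deletion is restricted to muscle fibers so that other cells of the muscle keep the gene, and no sedentary mice were analysed here.

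The libraries held 8940206 to 10989846 estimated counts in WT and 10984664 to 13798059 in LSD1-mKO. Kdm1a, the gene for LSD1, had CPM values (counts scaled to a common library size after TMM normalization) of 40.5, 38.2 and 33.6 in the WT mice and of 14.6, 16.6 and 16.6 in the LSD1-mKO mice (log2 fold change −1.23, SE 0.11, edgeR adjusted p = 0.0160). Kdm1a and Esr1, the gene for the estrogen receptor whose ligand-binding domain is a part of CreERT2, were the 2 genes called at an adjusted p under 0.05 among the 12828 tested (0.0156%, with 0.0078% higher and 0.0078% lower in LSD1-mKO); Esr1 was singled out after its values were seen. The muscle markers summed to between 88480 and 115747 CPM in each mouse, with Acta1 the most abundant, and none of the markers of muscle was at 0. Among the WT mice, replicate 1 stood apart in markers of other cells. Its summed macrophage markers were 109 CPM against 342 and 283 in the other WT mice. Its summed fibroblast markers were 1029 CPM against 2774 and 3252. In LSD1-mKO replicates 1 to 3 the sums were 220, 110 and 163 CPM for macrophage and 2176, 1196 and 1309 CPM for fibroblast markers. Results for the NRF2 genes are therefore also given without WT replicate 1. Leaving it out keeps the WT mice with the higher sums, so it does not even out these markers between the genotypes.

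Upstream sequence frames the comparison, since AREs and XREs are the DNA elements through which NRF2 and AhR act. RefSeq windows from 250 bases before to 50 bases after the transcription start (GRCm38.p6) were matched for 7 of the 10 genes, Nqo1, Gclm, Txnrd1, Srxn1, Slc7a11, Nfe2l2 and Keap1, with 9 windows in all because Txnrd1 has 3. The 250 bases before the start are printed 5′ to 3′ on the strand of the gene for Nqo1, around which the set was built, for Srxn1 and Txnrd1 (its second window), the targets with the next highest fitted differences, and for Gclm, a glutathione gene that did not differ detectably. Capitals mark the ARE core TGACNNNGC or its G form TGAGNNNGC, searched on both strands, so that a core on the opposite strand reads as its reverse complement.
Nqo1, chr8:107403206-107403455, minus strand: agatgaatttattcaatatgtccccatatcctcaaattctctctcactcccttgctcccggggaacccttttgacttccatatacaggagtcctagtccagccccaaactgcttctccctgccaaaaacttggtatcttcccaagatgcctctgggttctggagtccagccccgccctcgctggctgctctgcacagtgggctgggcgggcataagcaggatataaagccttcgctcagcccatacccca
Srxn1, chr2:152105274-152105523, plus strand: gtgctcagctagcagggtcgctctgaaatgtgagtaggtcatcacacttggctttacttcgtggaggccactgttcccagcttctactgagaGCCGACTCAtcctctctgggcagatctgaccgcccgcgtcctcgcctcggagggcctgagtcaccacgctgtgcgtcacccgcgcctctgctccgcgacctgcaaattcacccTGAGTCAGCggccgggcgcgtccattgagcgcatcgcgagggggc
Txnrd1, chr10:82858956-82859205, plus strand: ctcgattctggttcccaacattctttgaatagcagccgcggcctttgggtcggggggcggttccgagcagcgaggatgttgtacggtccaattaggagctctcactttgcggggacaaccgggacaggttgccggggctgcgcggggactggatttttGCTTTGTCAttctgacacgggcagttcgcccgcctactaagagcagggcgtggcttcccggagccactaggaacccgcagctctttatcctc
Gclm, chr3:122245307-122245556, plus strand: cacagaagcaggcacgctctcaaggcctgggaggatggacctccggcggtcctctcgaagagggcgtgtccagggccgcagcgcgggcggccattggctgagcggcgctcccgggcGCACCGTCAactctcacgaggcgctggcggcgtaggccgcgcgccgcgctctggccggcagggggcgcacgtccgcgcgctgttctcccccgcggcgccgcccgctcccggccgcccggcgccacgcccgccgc

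The Nqo1 window held neither form of the ARE core nor the XRE core GCGTG, while the stretch of Srxn1 held 2 matches to the G form, starting 158 and 45 bases before the transcription start, and a C-form match 29 bases into the transcript, beyond the bases printed. The single match of Gclm began 134 bases and that of the second Txnrd1 window 92 bases before the start. The other Txnrd1 windows, not printed, held neither form of the ARE core. Over the 7 genes, 4 had the C form (Gclm, Txnrd1, Srxn1 and Nfe2l2), against 12.4% of all 32851 RefSeq windows. A gene was counted if any of its windows had the core, whereas the share is per window. The G form, added after the first search, was in Srxn1 and Slc7a11 and in 17.6% of all windows. Either form was in 5 of the 9 windows and in 27.8% of all. The XRE core was in 6 of the 9 windows, those of Gclm, Srxn1 and Keap1 and all of Txnrd1, and in 32.4% of all. These are matches of letters in a short window, and elements farther from the start were not searched.

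Levels within the muscle were compared per transcript length, in TPM, which divides counts by transcript length and scales each library to the same sum. In WT, Nfe2l2 was the most abundant of the 10 mRNAs at 68.8 ± 2.88 TPM (SD, n = 3), followed by Keap1 at 53.8 ± 2.24 TPM and Txnrd1 at 45.5 ± 7.85 TPM, with no overlap between neighbors. Srxn1 at 30.0 ± 3.82 TPM, Nqo1 at 29.7 ± 6.17 TPM and Gsr at 29.4 ± 1.91 TPM overlapped and could not be ordered. Gclc at 13.6 ± 0.986 TPM and Hmox1 at 12.5 ± 3.28 TPM likewise overlapped, and Gclm, at 6.31 ± 0.352 TPM, lay below both. Slc7a11 was close to absent at 0.0392 TPM. In LSD1-mKO, Nqo1 stood second in the order of means, at 57.1 ± 21.3 TPM, between Nfe2l2 at 61.4 ± 3.01 TPM and Txnrd1 at 51.7 ± 2.09 TPM, and its range from 37.3 to 79.6 TPM covered theirs; the order of the others changed by 1 place at most for every gene but Keap1, which followed Txnrd1 with a mean of 49.5 TPM.

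**Figure D1:**
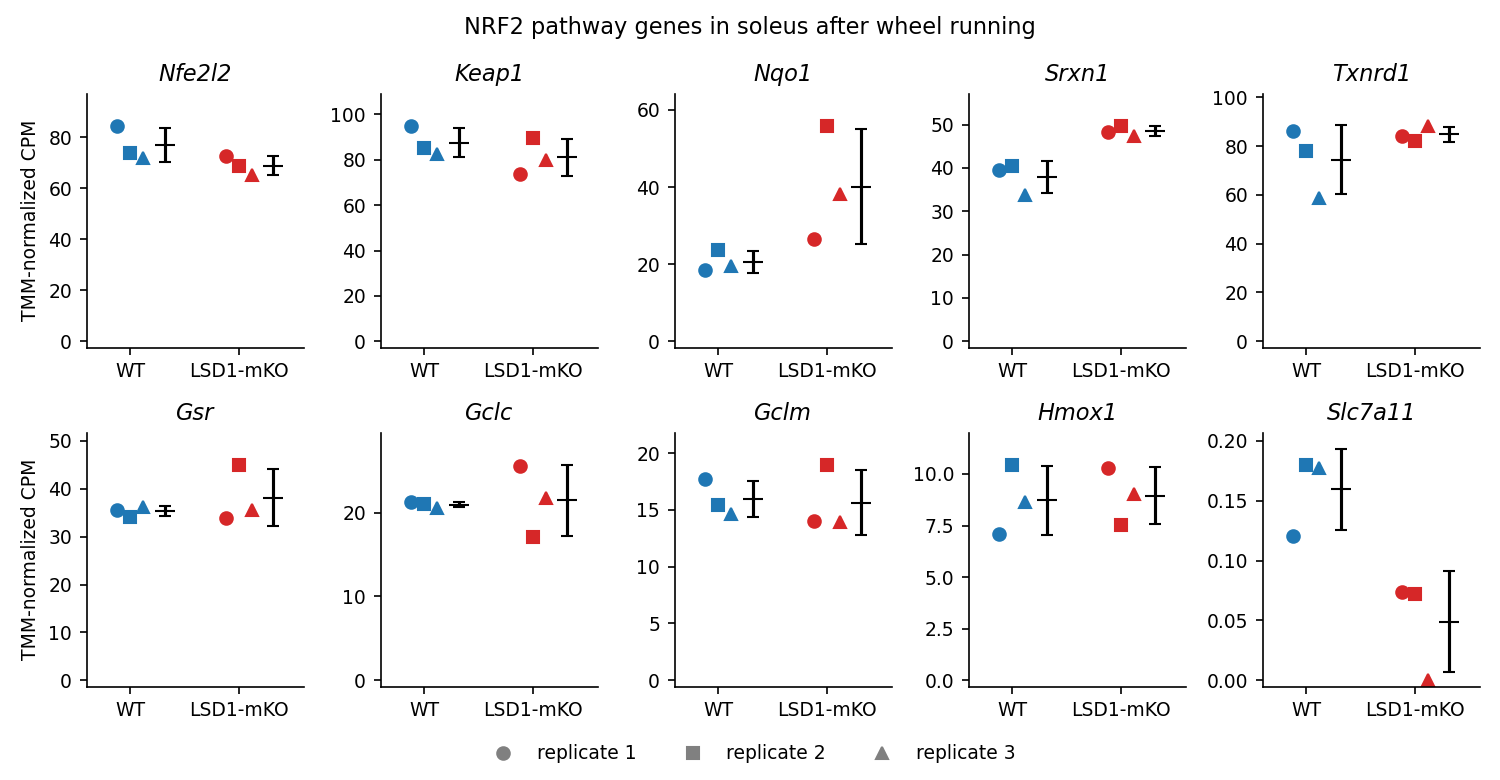
Each panel shows 1 gene, with TMM-normalized CPM on a linear axis from 0, 1 symbol per mouse (circle, square and triangle for replicates 1 to 3, WT in blue and LSD1-mKO in red) and the mean ± SD of 3 mice. Nqo1 and Srxn1 were higher in all 3 LSD1-mKO mice than in any WT mouse; for the other 7 tested genes the groups overlapped on this scale, and all values of Slc7a11 rest on under 3 counts.

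Neither regulator passed the test between the genotypes. Nfe2l2 (chr2:75675513-75704641, minus strand) was at 84.5, 74.0 and 72.0 CPM in WT replicates 1 to 3 and at 72.7, 68.7 and 65.3 CPM in LSD1-mKO replicates 1 to 3. LSD1-mKO replicate 1 lay just above the lowest WT mouse, so the groups overlapped, and the log2 fold change of LSD1-mKO over WT was −0.16 (SE 0.09, 95% interval −0.37 to 0.06, edgeR adjusted p = 0.781). Without WT replicate 1, the highest of the 6 mice, it was −0.08. In TPM the groups did not overlap: Nfe2l2 was at 69.8, 71.1 and 65.6 TPM in WT and at 64.4, 61.4 and 58.4 TPM in LSD1-mKO, and 5.98% of the 12733 tested genes with a length were likewise lower in every LSD1-mKO mouse on that scale. TPM was scaled to the library sum without TMM factors, and no test was run on that scale.

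Keap1 (chr9:21229730-21239361, minus strand) was at 95.0, 85.2 and 82.7 CPM in WT and at 73.7, 89.7 and 80.0 CPM in LSD1-mKO. The second LSD1-mKO mouse exceeded 2 of the WT mice while the other two were below all of them, and the log2 fold change was −0.11 (SE 0.10, 95% interval −0.34 to 0.12, edgeR adjusted p = 0.866). Its exons share 510 bases with Gm16754 on the opposite strand, and reads of the 2 genes could not be told apart if counting ignored strand. Neither regulator was therefore shown to change, and for both the interval excluded a doubling or a halving of the mRNA.

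Nqo1 (chr8:107388225-107403206, minus strand) was at 18.4, 23.8 and 19.5 CPM in WT and at 26.4, 55.9 and 38.1 CPM in LSD1-mKO. The lowest LSD1-mKO mouse was thus above the highest WT mouse, but the LSD1-mKO mice were far from each other, the second being more than double the first. The means were 20.6 ± 2.81 and 40.1 ± 14.8 CPM (SD, n = 3 each), a ratio of 1.95, and the fitted log2 fold change was 0.96 (SE 0.25). No test is given, because these values chose the set.

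The size of the Nqo1 difference depended on the mice of the LSD1-mKO group. Leaving out LSD1-mKO replicate 2 gave a log2 fold change of 0.65 and leaving out LSD1-mKO replicate 1 gave 1.19, whereas without WT replicate 1 it was 0.89. The coefficient of variation of Nqo1 was 13.6% among WT and 37.0% among LSD1-mKO mice, where 2.04% of the 10211 genes with a mean of at least 5 CPM varied more. Kdm1a, at 14.6 to 16.6 CPM in the same 3 mice, had no such spread. The raw estimated counts behind these values were 153, 264 and 220 in WT and 357, 772 and 409 in LSD1-mKO.

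Among the targets other than Nqo1, the fitted difference farthest from 0 was that of Srxn1, which encodes sulfiredoxin, the enzyme that restores overoxidized peroxiredoxins. Srxn1 (chr2:152105516-152111376, plus strand) was at 39.4, 40.5 and 33.7 CPM in WT and at 48.3, 49.7 and 47.4 CPM in LSD1-mKO. Every LSD1-mKO mouse was above every WT mouse, and the LSD1-mKO mice lay close together, with a coefficient of variation of 2.41%. Its means were 37.9 ± 3.68 and 48.5 ± 1.17 CPM, a ratio of 1.28, with a log2 fold change of 0.36 (SE 0.10, 95% interval 0.14 to 0.58).

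The Srxn1 difference did not pass the adjustment over all genes. The unadjusted p in the edgeR fit was 0.00549 and the adjusted p was 0.556, and 6.4% of the 12828 genes had an unadjusted p under 0.05. The exact two-sided permutation test gave p = 0.1, the smallest that 3 mice against 3 allow. Groups that did not overlap, with LSD1-mKO higher, were found for 6.63% of all genes tested. Leaving out each mouse in turn kept the log2 fold change between 0.28 and 0.41, and the adjusted p between 0.208 (without WT replicate 1) and 0.998.

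Txnrd1 encodes cytosolic thioredoxin reductase, which uses NADPH to keep thioredoxin reduced. Txnrd1 (chr10:82833951-82897712, plus strand) was at 86.4, 78.1 and 58.8 CPM in WT and at 84.0, 82.1 and 88.4 CPM in LSD1-mKO. WT replicate 3 was well below the other 5 mice, which lay close together and mixed, and the log2 fold change was 0.19 (SE 0.14, 95% interval −0.12 to 0.50, edgeR adjusted p = 0.814). It was 0.05 without WT replicate 3 and 0.31 without WT replicate 1, the latter with an unadjusted p of 0.039 and an adjusted p of 0.321 in edgeR.

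The glutathione genes gave fitted differences near 0. Gclc (chr9:77754535-77794485, plus strand), the catalytic subunit of glutamate-cysteine ligase, which makes the rate-limiting step of glutathione synthesis, was at 21.2, 21.1 and 20.6 CPM in WT and at 25.6, 17.2 and 21.7 CPM in LSD1-mKO. The WT mice had a coefficient of variation of 1.51% and sat inside the range of the LSD1-mKO mice, whose second mouse, highest for Nqo1, was the lowest of the 6 here. The log2 fold change was 0.04 (SE 0.15, 95% interval −0.30 to 0.37, edgeR adjusted p = 0.971).

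Gclm (chr3:122245557-122270732, plus strand), the modifier subunit of the same ligase, was at 17.7, 15.4 and 14.7 CPM in WT and at 14.0, 19.0 and 14.0 CPM in LSD1-mKO. The second LSD1-mKO mouse was the highest and the other two the lowest of the 6, and the log2 fold change was −0.02 (SE 0.15, 95% interval −0.37 to 0.34, edgeR adjusted p = 0.983). Gclm exons share 296 bases with Gm17494 on the opposite strand and 244 bases with the pseudogene Gm6061 on the same strand, so its counts, like those of Keap1, are uncertain.

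Gsr, which encodes glutathione reductase, regenerates reduced glutathione from its oxidized form. Gsr (chr8:33652523-33698163, plus strand) was at 35.6, 34.2 and 36.2 CPM in WT and at 33.8, 45.0 and 35.7 CPM in LSD1-mKO. The second LSD1-mKO mouse alone stood above a narrow band formed by the other 5, and without it the log2 fold change of 0.11 (SE 0.12, 95% interval −0.16 to 0.39, edgeR adjusted p = 0.884) became −0.02.

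Slc7a11 (chr3:49892526-50443614, minus strand), the cystine importer that feeds glutathione synthesis, could not be compared. Its estimated counts were 1.01, 2.02 and 2.02 in WT and 1.01, 1.01 and 0 in LSD1-mKO, all under the floor of 3 counts per library that was set for a comparison, which covers counting error only.

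Hmox1, which encodes heme oxygenase-1, the inducible enzyme that opens the heme ring, had the lowest CPM of the tested members. Hmox1 (chr8:75093621-75100589, plus strand) was at 7.11, 10.4 and 8.62 CPM in WT and at 10.3, 7.53 and 9.03 CPM in LSD1-mKO. The mice of the 2 groups were interleaved, and the log2 fold change was 0.03 (SE 0.19, 95% interval −0.41 to 0.46, edgeR adjusted p = 0.980). Leaving out 1 mouse moved it between −0.09 (without WT replicate 1) and 0.18 (without WT replicate 2).

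Hmox1 is also transcribed by macrophages, and its level was set beside their markers. The 8 macrophage markers, of which Lyz2 was the most abundant and none was at 0, summed to 109, 342 and 283 CPM in WT and to 220, 110 and 163 CPM in LSD1-mKO. Hmox1 was lowest in WT replicate 1 and LSD1-mKO replicate 2, which also had the lowest macrophage sums, and highest in WT replicate 2, which had the highest. The order was not shared throughout, since WT replicate 3 had the second highest sum but was below LSD1-mKO replicates 1 and 3 for Hmox1. All 8 markers had a fitted log2 fold change below 0, with a median of −0.59, while 45.2% of all genes tested were above 0. Of these markers, 0 were called by edgeR (0 also at an unadjusted p under 0.05). In whole muscle, fewer cells of a type and less RNA per cell cannot be told apart, and the part of macrophages in the Hmox1 values was not tested. Nqo1 was highest in LSD1-mKO replicate 2, a mouse with few macrophage transcripts, and lowest in WT replicate 1, which had as few.

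**Figure D2:**
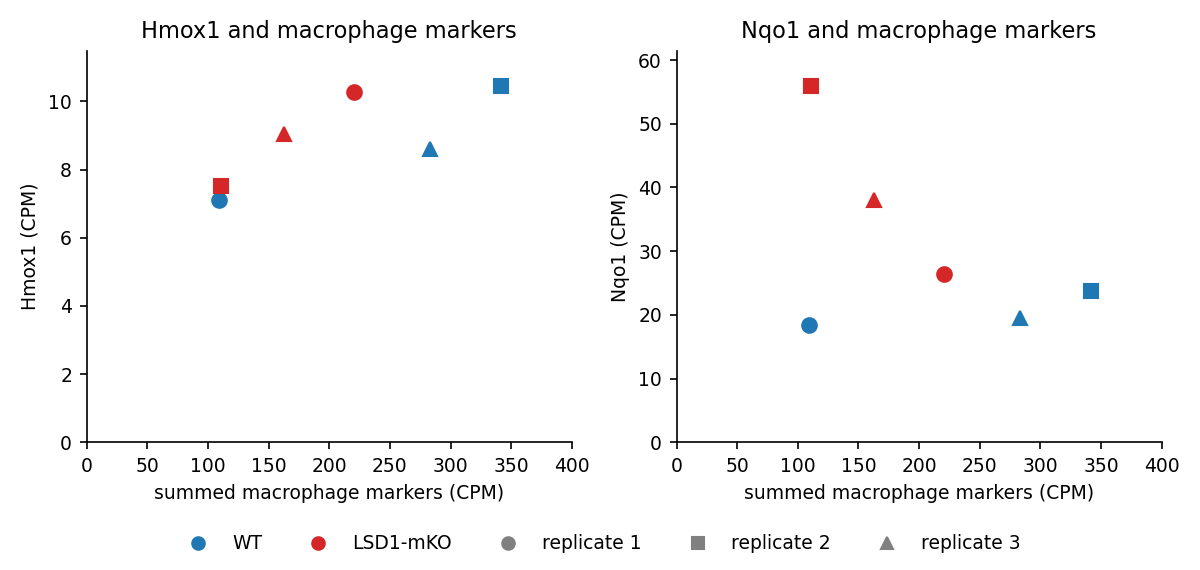
Summed CPM of the 8 macrophage markers (x axis) against the CPM of Hmox1 (left) and of Nqo1 (right), 1 symbol per mouse, WT in blue and LSD1-mKO in red. The 2 mice with the lowest sums, 109 and 110 CPM, had the lowest Hmox1, at 7.11 and 7.53 CPM, but the lowest and the highest Nqo1, at 18.4 and 55.9 CPM.

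Taking the 8 tested members other than Nqo1, edgeR called 0 at an adjusted p under 0.05 (0.0156% of all genes tested were called), as did limma voom and DESeq2 (0.327% of all genes), and Srxn1 was the 1 gene with an unadjusted p under 0.05 with each tool. Their fitted log2 fold changes ran from −0.16 (Nfe2l2) to 0.36 (Srxn1) with a median of 0.03, against a median of −0.02 and quartiles of −0.15 and 0.09 over all 12828 genes. Of these 8, 5 were above 0 (45.2% of all genes were) and 3 below. Without WT replicate 1, the log2 fold change was 0.39 for Srxn1, 0.12 for Gsr, 0.05 for Gclc, 0.06 for Gclm and −0.05 for Keap1. LSD1-mKO replicate 2 was the highest of the 6 mice for Srxn1, Gsr and Gclm, as for Nqo1, whose values chose the set. It was the lowest for Gclc. How often this mouse was highest over all genes was not counted, so these ranks describe the members only.

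**Figure D3:**
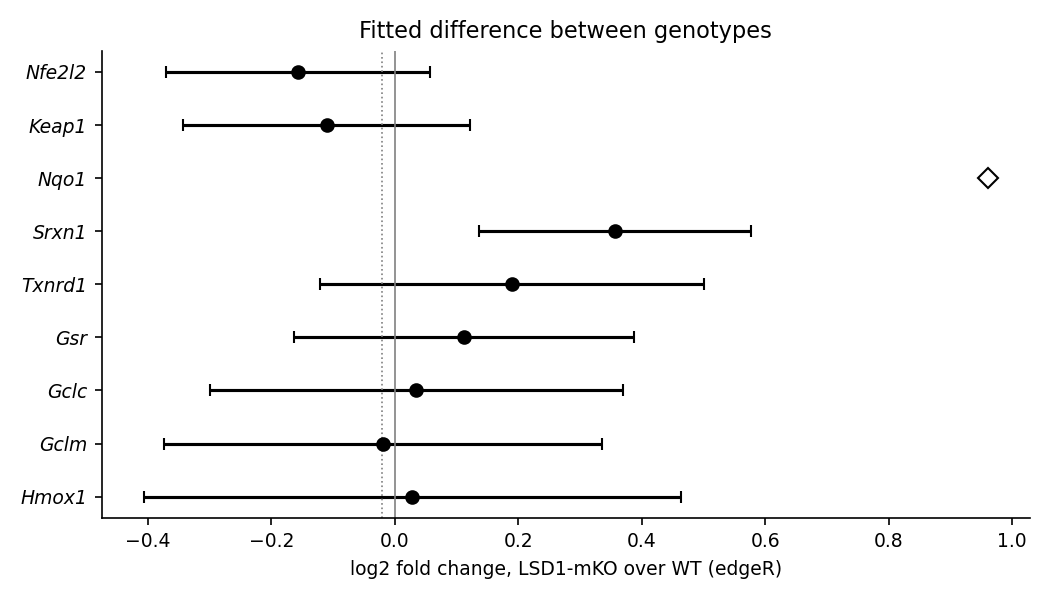
Fitted log2 fold changes of LSD1-mKO over WT (x axis, log2 scale) for the 9 tested genes, with 95% intervals from the edgeR fit; the open diamond is Nqo1, shown without an interval because its value chose the set, and the dotted line is the median of all 12828 genes, −0.02. The interval of Srxn1, from 0.14 to 0.58, lies above 0, while those of the other 7 include it.

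The genes whose values over the 6 mice were most like those of Nqo1 were found by the root mean square difference of log2 CPM, each gene centered on its mean, among 10205 genes with a mean of at least 5 CPM. They were Ndrg4 with a difference of 0.156, Echdc3 with 0.209, Ddit4l with 0.229, Akap17b with 0.249 and Nhlrc1 with 0.249, and none of these is a member. The nearest, Ndrg4, was at 39.7, 43.1 and 50.6 CPM in WT and at 60.4, 115 and 79.0 CPM in LSD1-mKO, with the same order of the LSD1-mKO mice as Nqo1. Among the members, Srxn1 was ranked 161st in likeness to Nqo1 and Gsr 585th, followed by Txnrd1 at rank 1851, Gclm at 2807, Keap1 at 5146, Hmox1 at 7112, Nfe2l2 at 8009 and Gclc at 8328. The differences of the members from Nqo1 ran from 0.4188 (Srxn1) to 0.6627 (Gclc), against 0.156 to 0.249 for the nearest genes named above. The measure is built on the Nqo1 values that chose the set, so genes higher in LSD1-mKO tend to rank near Nqo1. The ranking therefore describes these 6 libraries and does not test whether the members follow Nqo1.

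A wider set of 116 genes around the pathway was then counted, in 10 lists of regulators, NRF2 targets, AhR genes and flavin genes. Of the 115 in the table, 103 were tested, and edgeR, DESeq2 and limma voom each called 0. At an unadjusted p under 0.05, edgeR found 8 higher (3.52% of all genes were) and 3 lower (2.88% of all genes). DESeq2 found 6 and 3 (2.72% and 1.78% of all genes), and limma voom 8 and 2 (3.49% and 2.81%). The edgeR shares also stand beside the counts of each list below. The groups did not overlap for 10 genes with LSD1-mKO higher and for 7 with LSD1-mKO lower (6.63% and 6.1% of all genes). These percentages are also the background for the genes below whose groups did not overlap. In fitted sign, 51 were above 0 and 52 below, with a median log2 fold change of −0.02, the same as for all genes. Without WT replicate 1, edgeR found 13 higher and 7 lower at an unadjusted p under 0.05. In that fit, 6.43% of all genes were higher and 7.98% lower. Whether the lists differed from all genes was not tested. Of the 12 genes left out for low counts, 10 could be fitted with no filter, edgeR called 0 of them, and Ahrr, Gsta2 and Gsta1, named after their values were seen, had an unadjusted p under 0.05. The estimated counts of Gsta2 were 1, 0 and 0 in WT and 4, 5.56 and 5.35 in LSD1-mKO, and those of Gsta1 were 1, 6 and 3.57 in WT and 2, 0 and 0 in LSD1-mKO. These 2 genes are close paralogs whose reads are hard to assign.

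The upstream regulators beyond Nfe2l2 and Keap1 counted 14 tested genes, 2 of them higher at an unadjusted p under 0.05 (3.52% of all genes). Gsk3b, a kinase that marks NRF2 for KEAP1-independent degradation, was at 107 ± 2.85 CPM in WT and 124 ± 9.84 CPM in LSD1-mKO (log2 fold change 0.22, edgeR adjusted p = 0.731). Cul3, the scaffold of the ligase that KEAP1 serves, was at 161 ± 15.6 and 187 ± 5.98 CPM (log2 fold change 0.22, edgeR adjusted p = 0.766). The small MAF gene Mafg was lower in all 3 LSD1-mKO mice, at 27.6 ± 1.69 and 24.3 ± 2.03 CPM (log2 fold change −0.18, edgeR adjusted p = 0.777), and Maff had a log2 fold change of −0.39.

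Of 14 tested glutathione genes, 2 were higher and 1 was lower at an unadjusted p under 0.05 (3.52% and 2.88% of all genes). Gstm1, a glutathione S-transferase, was at 95.9 ± 4.54 CPM in WT and 117 ± 7.92 CPM in LSD1-mKO (log2 fold change 0.29, edgeR adjusted p = 0.603). Glrx, a glutaredoxin, was at 22.0 ± 1.84 and 28.9 ± 4.13 CPM (log2 fold change 0.39, edgeR adjusted p = 0.660). For both, every LSD1-mKO mouse was above every WT mouse. Chac1, which breaks down glutathione, went the other way at 56.1 ± 14.6 and 26.0 ± 12.9 CPM (log2 fold change −1.10, edgeR adjusted p = 0.607), with overlapping groups, and Gsta3 had a log2 fold change of −0.79.

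The 11 thioredoxin and peroxiredoxin genes had 0 at an unadjusted p under 0.05 in edgeR (6.4% of all genes were). Their log2 fold changes centered on a median of 0.03. Prdx1, a peroxiredoxin, was at 209 ± 11.9 CPM in WT and 233 ± 18.4 CPM in LSD1-mKO (log2 fold change 0.15, edgeR adjusted p = 0.781). The log2 fold changes of the sestrin genes Sesn1 and Sesn2 were −0.51 and −0.46, and that of Msrb1, a methionine sulfoxide reductase, was 0.14.

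Of the 10 NADPH genes, 1 was higher at an unadjusted p under 0.05 (3.52% of all genes were). This was Me1, cytosolic malic enzyme, at 100 ± 5.00 CPM in WT and 123 ± 15.9 CPM in LSD1-mKO (log2 fold change 0.30, edgeR adjusted p = 0.718), with no overlap. Idh1, another source of cytosolic NADPH, was lower in all 3 LSD1-mKO mice, at 70.4 ± 6.45 and 61.6 ± 1.86 CPM (log2 fold change −0.19, edgeR adjusted p = 0.766). Mthfd2 and Pgls had log2 fold changes of 0.40 and −0.21.

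Among 10 heme and iron genes, 0 were higher and 1 was lower at an unadjusted p under 0.05 (3.52% and 2.88% of all genes). This was Ftl1, the ferritin light chain, with 288 ± 33.6 CPM in WT and 231 ± 19.4 CPM in LSD1-mKO. Its groups did not overlap (log2 fold change −0.32, edgeR adjusted p = 0.698). Fth1, the ferritin heavy chain, went the other way, at 1695 ± 114 and 1870 ± 20.2 CPM. It was higher in all 3 LSD1-mKO mice (log2 fold change 0.14, edgeR adjusted p = 0.824). Hmox2, the constitutive heme oxygenase, was at 40.0 ± 0.430 and 44.6 ± 1.81 CPM (log2 fold change 0.16, edgeR adjusted p = 0.767), higher in all 3 LSD1-mKO mice, whereas Hmox1 had overlapping groups. Fech and Slc40a1, ferrochelatase and the iron exporter ferroportin, had log2 fold changes of 0.21 and 0.50.

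The 18 tested quinone, carbonyl and aldehyde metabolizing genes are the functional neighbors of Nqo1. Of these, 1 was higher at an unadjusted p under 0.05 (3.52% of all genes were), and the median log2 fold change was −0.02. Akr1b10, an aldo-keto reductase, was at 36.1 ± 2.17 CPM in WT and 44.8 ± 5.53 CPM in LSD1-mKO (log2 fold change 0.31, edgeR adjusted p = 0.701). Aldh1a1, a retinaldehyde dehydrogenase, had a log2 fold change of −0.45, Adh7 of −0.98 and Akr1b8 of 0.41. Nqo2, the paralog of Nqo1, was looked up after the lists were counted and was at 34.5 ± 0.794 CPM in WT and 34.0 ± 2.71 CPM in LSD1-mKO (log2 fold change −0.02, edgeR adjusted p = 0.972).

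Of 6 tested drug transporters, 1 was higher at an unadjusted p under 0.05 (3.52% of all genes were). This was Abcc4, with 16.5 ± 0.648 CPM in WT and 20.4 ± 1.17 CPM in LSD1-mKO (log2 fold change 0.31, edgeR adjusted p = 0.665). Abcc1, Abcc3 and Abcg2 had log2 fold changes of −0.23, −0.39 and −0.10. Of 9 other tested genes with reported AREs, 1 was higher at an unadjusted p under 0.05 (3.52% of all genes were). This was Htatip2, at 13.0 ± 0.872 and 18.6 ± 3.02 CPM (log2 fold change 0.51, edgeR adjusted p = 0.578), with no overlap. Osgin1 was lower in all 3 LSD1-mKO mice, at 8.43 ± 0.198 and 6.83 ± 1.29 CPM (log2 fold change −0.30, edgeR adjusted p = 0.777), and Pir and Esd had log2 fold changes of 0.32 and 0.15.

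AhR offers a second route to Nqo1, and its genes were counted as well. Of 6 tested, 0 had an unadjusted p under 0.05 in edgeR (6.4% of all genes had), and the median log2 fold change was 0.01. Ahrr, the AhR repressor and itself an AhR target, was too low for the filter, with 1, 1 and 1 estimated counts in WT and 13, 5 and 5 in LSD1-mKO. Every LSD1-mKO mouse was above every WT mouse (as in 6.63% of the genes tested, which do not include Ahrr). With no filter, Ahrr had an edgeR unadjusted p of 0.00731 and an adjusted p of 0.574. Cyp1a1 and Cyp1b1, tested in the same list, had log2 fold changes of −0.23 and 0.15, with overlapping groups. Ahr itself was at 6.12 ± 1.37 CPM in WT and 7.70 ± 0.816 CPM in LSD1-mKO (log2 fold change 0.32, edgeR adjusted p = 0.781), with overlapping groups, and Arnt and Tiparp had log2 fold changes of −0.12 and −0.20. Flavin genes were included because both NQO1 and LSD1 bind FAD. Of 5 tested, 1 was lower at an unadjusted p under 0.05 in edgeR (2.88% of all genes were). Rfk, riboflavin kinase, was at 88.7 ± 9.89 and 106 ± 10.3 CPM (log2 fold change 0.25, edgeR adjusted p = 0.766), and the riboflavin transporter Slc52a3 was at 2.55 ± 0.616 and 1.56 ± 0.248 CPM (log2 fold change −0.69, edgeR adjusted p = 0.766), with an unadjusted p of 0.043 in edgeR. Flad1, FAD synthase, and Slc25a32 had log2 fold changes of 0.14 and 0.06.

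**Figure D4:**
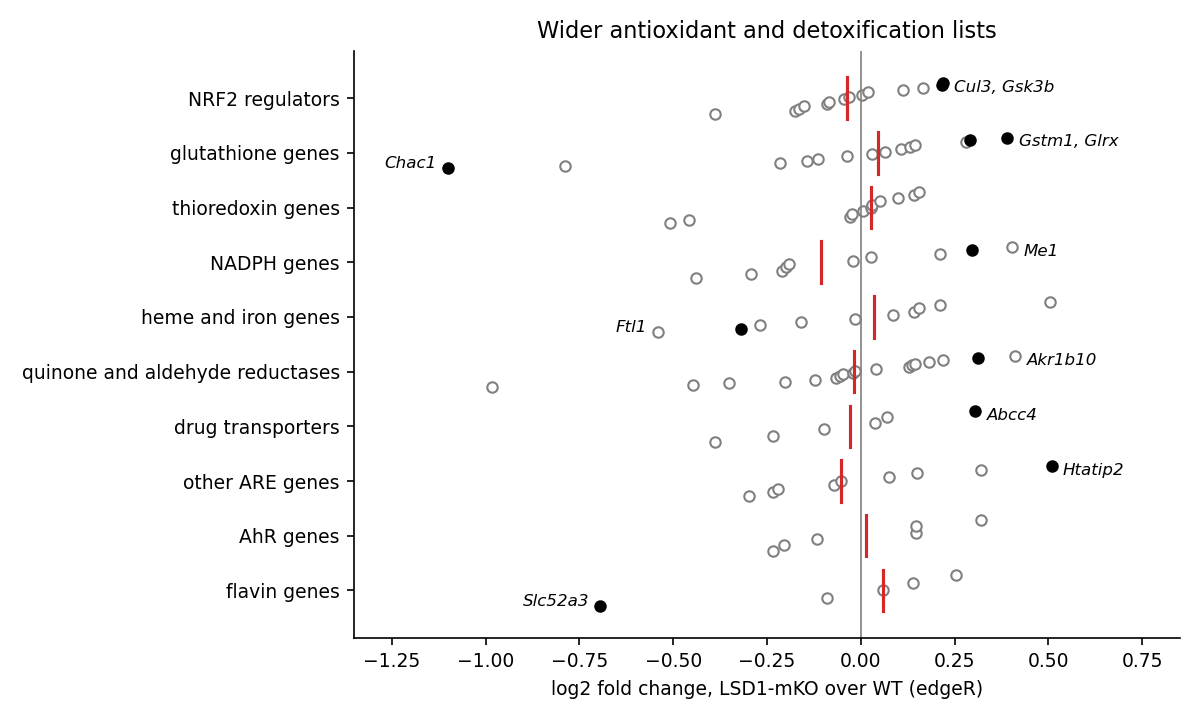
Fitted log2 fold change of LSD1-mKO over WT (log2 scale) for each tested gene of the 10 wider lists, filled where the unadjusted edgeR p was under 0.05 and open otherwise, with a red bar at the median of each list. The list medians lie between −0.11 and 0.06, and 11 of the 103 points are filled, 8 above and 3 below 0.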

How the data were processed

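The libraries were made from polyadenylated RNA of the Sol of 6 mice, 3 per genotype. The authors deposited estimated counts per gene, not normalized, with under 10% of the values of each library not whole. The submitters' processing notes name STAR, DESeq2 and mm10; the counting tool and annotation are not given in the sources used here, nor is whether counting used strand. A deposited DESeq2 table (base mean, fold change, error, statistic, p and adjusted p) was not used. Columns were matched to mice by number, and no pair of libraries was as alike as repeated draws, the chi-square per gene between pairs being at least 9.925.

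Estimated counts were rounded and fitted with edgeR 4.0.16 in R 4.3.3 (TMM, filterByExpr by genotype, quasi-likelihood test), with Benjamini-Hochberg adjustment over 12828 genes and calls at 0.05. The alternative tests were limma voom (3.58.1) and DESeq2 (1.42.0). The study's own test for these data was DESeq2. All 3 were tested on simulated data. Single genes were compared by an exact permutation test over 20 splits. Where nothing says otherwise, n is 3 mice per genotype. TPM used the longest protein-coding transcript of GENCODE vM21 (GRCm38), which also gave gene positions; 99.7% of counts had a length. Counts of amplified reads are not independent molecules.

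The members and lists were chosen with earlier results of these data known. Genes named were the 10 members, Kdm1a, up to 4 genes per wider list with the smallest unadjusted p, the most abundant marker of each cell type, and the 5 genes most like Nqo1; 1 gene that this rule names is not reported here. Esr1, Nqo2, Ahrr, Cyp1a1, Cyp1b1, Gsta1, Gsta2, Fth1 and the G form of the ARE core were added after the data were seen. The table has no symbol Trim16l. The labels give no pairing of the mice by replicate number, and the main fit treated them as unpaired.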

Additional observations from a re-analysis of the deposited data

How the results depend on the processing

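Over all genes, 2 were called in the edgeR fit, 42 by DESeq2 (33 higher, 9 lower in LSD1-mKO), 11 with no filter on low counts and 1 with the replicate number as a block; leaving out each mouse in turn gave 1 to 3, with 3 without WT replicate 1. Members other than Nqo1 and genes of the wider lists were called 0 times under every alternative. With the replicate block, 322 genes were higher and 228 lower at an unadjusted p under 0.05 (452 and 369 without it). Deviations of same-numbered mice had correlations of −0.373, −0.0888 and −0.145, and those of other pairs ran from −0.21 to 0.311. With so few mice, these values cannot decide whether the mice were paired. Of 126 comparisons of a member's fold change with that of an alternative, 8 were reversed, all of Hmox1, Gclc, Gclm or Gsr. The other 118 were kept, which, with 0 calls among the other members, means only the same direction. They include Nqo1, whose values chose the set, so this count is no support for the set. Hmox1 was at −0.0049 with library size alone and from −0.089 to 0.18 with a mouse left out, Gclc from −0.11 to 0.18, Gclm from −0.18 to 0.064 and Gsr from −0.018 to 0.20. The cause was not tested. The ARE core was in 4 members in its C form and in 5 with either form. With 3 mice per genotype and a median SE of 0.14 on the log2 scale, small differences of single genes were not detectable.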

Other observations

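Other cell types that a soleus sample can hold gave these values. The 7 fibroblast markers, with Col3a1 the most abundant, summed to 1029, 2774 and 3252 CPM in WT and to 2176, 1196 and 1309 CPM in LSD1-mKO, and the median of their log2 fold changes was −0.43. Sums ran from 519 to 621 CPM for adipocyte markers (Fabp4 the most abundant), from 505 to 708 CPM for endothelial markers (Cdh5), from 138 to 163 CPM for Schwann cell markers (Pmp22), from 202 to 535 CPM for red blood cell markers (Hba-a2) and from 60.3 to 88.1 CPM for satellite cell markers (Chodl). No marker of these types was called by edgeR. In the edgeR fit 3, named after their values were seen, had an unadjusted p under 0.05 (6.4% of all genes had). They were Vwf (log2 fold change −0.45), Chodl (−0.45) and Hba-a1 (3.95, with overlapping groups). Estimated counts of Hba-a1 were 112, 63.9 and 0.02 in WT and 34.7, 1077 and 2173 in LSD1-mKO. Hba-a2 had a log2 fold change of −0.58, and how reads were shared between Hba-a1 and Hba-a2 was not tested. The part of these cell types in the values of the NRF2 genes was not tested.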
